A study of Homo sapiens with 12 samples.

Results

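Oxidative phosphorylation (OXPHOS) is carried out in the inner mitochondrial membrane by 5 protein complexes, and the genes described here are those in the nucleus that carry the symbols of their subunits. Members were chosen by gene symbol. They were the NDUFA, NDUFB, NDUFC, NDUFS and NDUFV genes with NDUFAB1, the succinate dehydrogenase genes SDHA to SDHD, the UQCR genes with CYC1, the COX4 to COX8 subunits, and every ATP5 symbol except ATP5I. After the pseudogenes ATP5EP2 and UQCRBP1 were dropped, 87 members remained of 22324 listed genes. Of these, 3 (ATP5S, ATP5SL and ATP5J2-PTCD1) carry an ATP5 symbol but are no subunits. Of the 87 members, 79 passed a filter on low values and entered the test, and the other 8 were at or near 0.

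Complexes I to IV form the electron transport chain. Complex I takes electrons from NADH and complex II takes them from succinate, complex III passes them to cytochrome c, and complex IV hands them to oxygen, while I, III and IV pump protons. Complex V, the ATP synthase, lets the protons flow back and uses their energy to make ATP. A small set of subunits is encoded by the mitochondrial genome, so every complex except II is built from both genomes. Nuclear OXPHOS genes are active in nearly all tissues, and some complex IV subunits have copies that are restricted to a tissue.

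The study sequenced RNA of MCF10A, a human mammary epithelial cell line that is immortalized but does not form tumors, in 3 groups of 4 libraries. The groups were the p53 KO clones KO313 and KO414, which had been made with CRISPR-Cas9 and a pair of guide RNAs that differed between the clones, and the wild-type (WT) parental cells. All groups were kept at low passage in the same medium, which contained horse serum, insulin, EGF, hydrocortisone and cholera toxin. The 8 p53 KO libraries came from 2 clones, so loss of p53 cannot be told apart from editing and cloning, and p-values measure the spread between repeats of these clones and of the parental line.

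CDKN1A, the cell cycle inhibitor p21 and a known p53 target, had 29.5 ± 3.23 RPKM in KO313, 31.9 ± 4.54 in KO414 and 249 ± 19.6 in WT (SD, n = 4 each), and its libraries did not overlap between a clone and WT. All 10 basal mammary epithelial markers examined were expressed, with KRT5 at 1055 RPKM in KO313, 922 in KO414 and 1344 in WT, whereas all 12 markers of leukocytes, endothelium, fibroblasts and fat stayed below the filter. Of the 10 epithelial markers, 3 were called higher and 5 lower in p53 KO, while 15.6% of all tested genes were called higher and 14.0% lower. The markers' log2 differences ran from -1.82 for KRT17 to 0.84 for LAMB3, and their part in the results below was not tested. The values are RPKM, which divide the reads of a gene by its length and by the size of the library, so they give each gene's share of a library and not the RNA content of a cell, and fewer cells of a type and less RNA per cell cannot be told apart. The read depth of the libraries is not given by the RPKM values, and between 15600 and 16641 genes were above 0 in each library. The tested genes' p-values are from limma on log2(RPKM + 0.5), two-sided and Benjamini-Hochberg adjusted over 12215 genes, and a gene was called when its adjusted p was under 0.05, at any fold change.

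Nearly all OXPHOS subunit genes had slightly lower mRNA levels in the p53 KO clones, and most of these small differences did not pass the test. Of 79 tested members, 18 were called lower and 0 higher in the 8 p53 KO libraries than in the 4 WT libraries. That is 22.8% of the members, where 14.0% of all tested genes were called lower, 15.6% higher and 29.6% in either direction. At an unadjusted p under 0.05 in limma, 30 members were lower and 0 higher, where 2268 of all 12215 tested genes were lower and 2573 higher. The median log2 difference over the 79 members was -0.15, against 0.01 over all tested genes. A negative difference was found for 71 of the 79 members and for 5769 of the 12215 tested genes. No member passed a fold change of 2 in p53 KO or in either clone, a size that 1.47% of all tested genes reached together with the adjusted p in p53 KO, 1.43% in KO313 and 1.92% in KO414. The largest differences belonged to UQCRB and COX5B. UQCRB, a small subunit of complex III, was 28.6% lower in mean RPKM in p53 KO, and COX5B, a subunit of complex IV, 25.9% lower.

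Each clone gave a like picture against the same WT libraries. In KO313, 11 members (13.9%) were called lower and 0 higher, with a median of -0.13. The background in this comparison was 10.7% called lower and 21.5% in either direction, so the members' share called lower was not far above it. In KO414, 16 members (20.3%) were called lower and 0 higher, with a median of -0.17 and a background of 14.6% lower and 29.8% in either direction. At an unadjusted p under 0.05 in limma, 23 members were lower in KO313 and 25 in KO414, and 0 were higher in either. Of all 12215 tested genes, 1913 were lower and 2169 higher in KO313 at that threshold, and 2345 lower and 2520 higher in KO414. The 11 members called in KO313 were all called in KO414 too, and 5 more (COX5B, NDUFA10, NDUFA4, NDUFB6 and NDUFS4) were called in KO414 alone. Because both comparisons use the same 4 WT libraries, these counts are not independent of each other. By mean log2 value, 69 members were lower in both clones and 4 (ATP5SL, CYC1, NDUFA3 and NDUFS3) were higher in both.

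**Figure D1:**
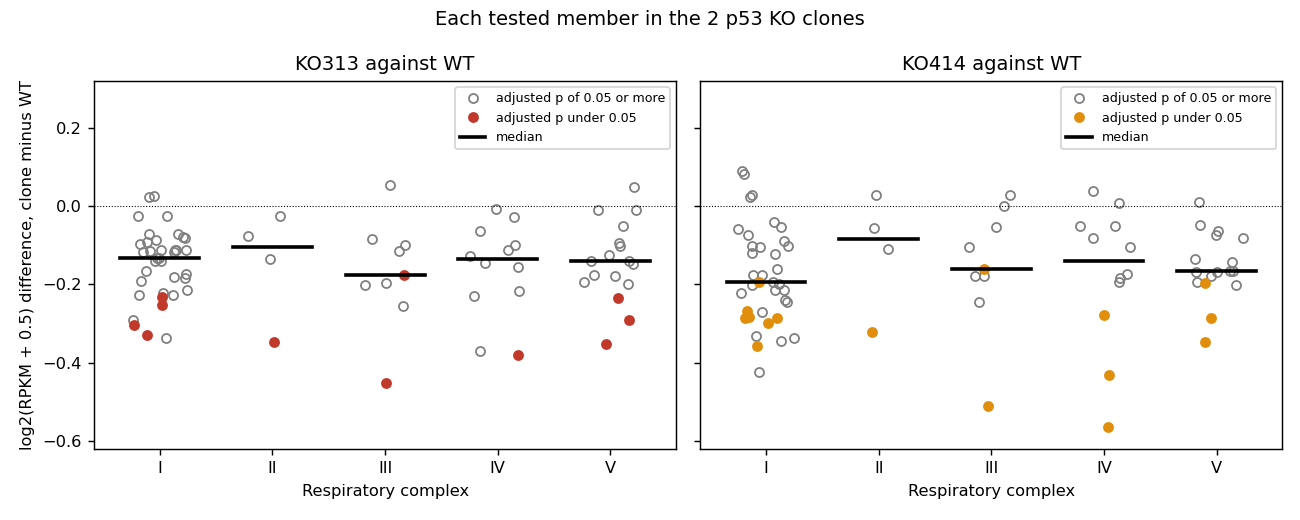
The log2(RPKM + 0.5) difference of each tested member is plotted by respiratory complex for KO313 against WT (left) and KO414 against WT (right). Filled points have an adjusted p under 0.05 and bars are medians over the complex. Most points lie below 0 in every complex, with called members at the lower end, and no called member lies above 0.

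The levels of the libraries overlapped for most members. Every p53 KO library was below the lowest WT library for 10 of 79 members, or 12.7%, where the share over all tested genes was 9.74%. For KO313 alone the count was 16 members (20.3%, background 13.8%), and for KO414 alone 12 members (15.2%, background 14.0%). For KO414 and for both clones together the member share was therefore close to the background. No member had all p53 KO libraries above the highest WT library.

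Summed over members, the drop was of similar size in all 5 complexes. The sum for all 87 members averaged 5975 ± 520.0 RPKM in p53 KO (SD, n = 8) and 6653 ± 458 RPKM in WT (SD, n = 4), which is 10.2% lower. By complex, the mean of the sum was 11.1% lower for complex I, 7.19% for II, 8.43% for III, 11.01% for IV and 9.83% for V. These sums were not tested. Over all listed genes, RPKM summed to 297989 to 312006 in KO313, 291429 to 329224 in KO414 and 303710 to 318117 in WT. KO414 replicate 1 had the highest total and KO414 replicate 2 the lowest. The members' sums were not scaled to these totals. The groups overlapped in each complex, with 5 or 6 of the 8 p53 KO libraries below the lowest WT library. For complex I the summed RPKM was 1646, 1577, 1835 and 1721 in KO313, 2004, 1482, 1636 and 1619 in KO414 and 1824, 1788, 2011 and 1978 in WT. KO414 replicate 1 lay among the WT libraries in all 5 complexes, and it was the highest p53 KO library in each.

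**Figure D2:**
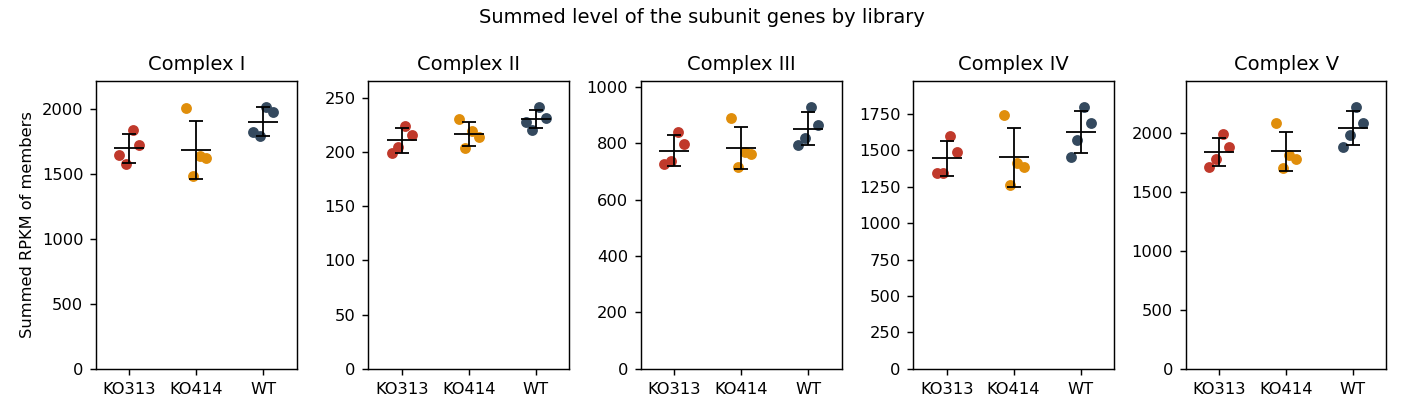
Summed RPKM of the members of each complex is shown for each library of KO313, KO414 and WT. Points are libraries, horizontal bars are means and error bars are SD (n = 4). The clone means are lower than the WT mean in all 5 panels, and the single high KO414 point in each panel is replicate 1.

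The promoters of OXPHOS genes are known for a few shared binding motifs, and members called lower were looked at for them because they moved in 1 direction. NRF1, GABPA of the ETS family and YY1 are known activators of such promoters. RefSeq windows of 250 bases before to 50 after the start (GRCh38.p14) were matched for 64 of 79 tested members and 12 of the 18 called lower. Exact matches on either strand were counted to the letters GCGCATGC for NRF1, CCGGAAGT for ETS and AAGATGGC for YY1, none of which contains another, and the NRF1 letters can overlap their own reverse complement. NRF1 letters were found in 12 of 64 members (18.8%) and in 3.27% of all 27305 promoters. ETS letters were in 9 members (14.1%) and 4.44% of all, and YY1 letters in 11 members (17.2%) and 3.03% of all. Among the 12 called members the shares were 16.7% for NRF1, 8.33% for ETS and 16.7% for YY1 letters. Among the 52 members not called they were 19.2%, 15.4% and 17.3% in that order. A match describes letters only and is not shown to be a bound site.

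To show where such letters stand, 180 bases before to 30 after the start are printed for NDUFB4, COX5B and ATP5F1 of complexes I, IV and V, all called lower, and for SDHD of complex II, which was not called and holds both the NRF1 and the ETS letters. Capitals mark the motif letters.
NDUFB4, chr3:120596156-120596365, plus strand: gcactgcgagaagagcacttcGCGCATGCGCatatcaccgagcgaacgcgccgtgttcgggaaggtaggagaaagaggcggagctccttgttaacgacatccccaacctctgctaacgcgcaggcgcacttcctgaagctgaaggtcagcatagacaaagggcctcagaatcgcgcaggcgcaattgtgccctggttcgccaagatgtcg
COX5B, chr2:97645882-97646091, plus strand: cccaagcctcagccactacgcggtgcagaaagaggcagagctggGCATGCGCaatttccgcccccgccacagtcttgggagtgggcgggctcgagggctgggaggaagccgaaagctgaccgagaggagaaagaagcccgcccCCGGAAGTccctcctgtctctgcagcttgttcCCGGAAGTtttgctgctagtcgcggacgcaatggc
ATP5F1 (named ATP5PB in RefSeq), chr1:111449284-111449493, plus strand: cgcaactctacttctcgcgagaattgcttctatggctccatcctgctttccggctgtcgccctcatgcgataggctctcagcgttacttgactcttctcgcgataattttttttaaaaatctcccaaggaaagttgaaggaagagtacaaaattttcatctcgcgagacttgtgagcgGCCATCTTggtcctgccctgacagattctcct
SDHD, chr11:112086693-112086902, plus strand: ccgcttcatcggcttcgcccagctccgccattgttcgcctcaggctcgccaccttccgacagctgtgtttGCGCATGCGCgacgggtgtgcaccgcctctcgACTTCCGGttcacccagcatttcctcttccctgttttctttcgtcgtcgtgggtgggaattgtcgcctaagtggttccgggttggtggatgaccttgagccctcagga
The NRF1 letters of NDUFB4 begin 159 bases before the start, on both strands with an overlap. COX5B has NRF1 letters on the other strand at 136 bases and ETS letters at 37 and at 5 bases before the start. In ATP5F1 the YY1 letters, on the other strand, begin 2 bases before the start. SDHD has NRF1 letters at 110 bases, also on both strands, and ETS letters on the other strand at 78 bases before it.

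Complex I had 9 of its 37 members (24.3%) called lower, where 14.0% of all tested genes were, and its catalytic core had none in this fit. The 7 subunits of the core are too few to set its lack of calls apart from that background. With the gene-length trend described below removed, 13 of the 37 (35.1%) were called lower, where 18.0% of all tested genes were. Among the 13 were 2 of the 7 core subunits (NDUFS1, adjusted p = 0.0325, and NDUFV2, adjusted p = 0.0405, in limma). The 7 core subunits carry the flavin and the iron-sulfur clusters that move electrons from NADH to ubiquinone, and 6 of the 7 differences were negative with a median of -0.12. NDUFV1, which binds NADH and the flavin, had 38.7 RPKM in KO313, 40.1 in KO414 and 42.7 in WT, and NDUFS1, the largest subunit, had 27.5 RPKM in KO313, 27.1 in KO414 and 29.4 in WT (log2 difference -0.11, SE 0.053, adjusted p = 0.145). All 8 p53 KO libraries were below every WT library for NDUFS1, although the difference was not called. NDUFV2 came closest to a call (log2 difference -0.15, SE 0.055, adjusted p = 0.0516). NDUFS7, another iron-sulfur subunit, varied widely between repeats, with 10.7, 4.44, 6.09 and 6.49 RPKM in KO313, 12.1, 3.34, 5.17 and 5.59 RPKM in KO414 and 8.32, 6.55, 5.70 and 7.92 RPKM in WT. Its highest values were replicate 1 of KO414 and of KO313, and the lowest was KO414 replicate 2.

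The called members of complex I were accessory subunits, which surround the core and are needed for its assembly and stability. Of 9 accessory subunits on the matrix arm 2 were called lower (NDUFA5 and NDUFS4), and of 21 accessory subunits of the membrane arm 7 were called lower (NDUFA10, NDUFB3, NDUFB4, NDUFB5, NDUFB6, NDUFC1 and NDUFS5). These shares were 22.2% and 33.3%, beside 14.0% of all tested genes called lower. Whether accessory and core subunits differ in their calls was not tested. NDUFB5 had the smallest adjusted p in the complex, with 38.4, 42.2, 44.0 and 42.4 RPKM in KO313, 44.7, 39.99, 44.0 and 42.2 RPKM in KO414 and 54.6, 47.8, 54.2 and 53.9 RPKM in WT. Every p53 KO library was below the WT range, and WT replicate 2 was the lowest WT library by a wide gap (log2 difference -0.31, SE 0.050, adjusted p = 0.000410). The difference was -0.33 in KO313 and -0.30 in KO414.

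NDUFB4, whose promoter is printed above, had 45.3, 43.6, 41.4 and 44.7 RPKM in KO313, 45.8, 38.3, 39.1 and 39.7 RPKM in KO414 and 57.7, 50.1, 45.9 and 55.8 RPKM in WT. The groups did not overlap, but the highest KO414 library and the lowest WT library were almost equal (log2 difference -0.30, SE 0.068, adjusted p = 0.00454). For NDUFS5, a small subunit of the membrane arm and the most abundant complex I transcript, the levels were 149.9, 156, 187 and 169 RPKM in KO313, 192, 154, 167 and 158 RPKM in KO414 and 193, 186, 214 and 226 RPKM in WT. In this gene KO313 replicate 3 and KO414 replicate 1 reached the lower end of WT and the other 6 p53 KO libraries were below it (log2 difference -0.30, SE 0.076, adjusted p = 0.00999). NDUFC1, the largest called difference of the complex, had 32.9, 26.9, 30.1 and 32.4 RPKM in KO313, 40.2, 25.7, 28.6 and 28.5 RPKM in KO414 and 40.9, 39.0, 33.3 and 41.9 RPKM in WT. All p53 KO libraries except KO414 replicate 1 were below WT (log2 difference -0.34, SE 0.10, adjusted p = 0.0227), and the call was lost without WT replicate 1, 2 or 4, with adjusted p of 0.0551 to 0.0813.

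NDUFA5, at the matrix arm, averaged 24.6 RPKM in KO313, 23.6 in KO414 and 29.0 in WT and was called in both clones (log2 difference -0.26, SE 0.055, adjusted p = 0.00329). NDUFS4, an accessory subunit whose loss is known to cause Leigh syndrome, averaged 42.9 RPKM in KO313, 41.5 in KO414 and 50.1 in WT (log2 difference -0.25, SE 0.071, adjusted p = 0.0191). Smaller called differences were those of NDUFB3 (-0.22), NDUFB6 (-0.24) and NDUFA10 (-0.18). The other 2 of the 3 most abundant complex I transcripts were not called. NDUFA1, a membrane-arm subunit needed for assembly, had 97.5, 101, 132 and 108 RPKM in KO313, 129, 91.2, 106 and 98.8 RPKM in KO414 and 103, 124, 151 and 136 RPKM in WT. Its groups overlapped widely (log2 difference -0.25, SE 0.11, adjusted p = 0.115). NDUFB9, also of the membrane arm, had 76.9, 77.7, 90.9 and 86.4 RPKM in KO313, 101, 76.9, 85.4 and 82.8 RPKM in KO414 and 80.7, 79.9, 90.8 and 86.1 RPKM in WT, so that p53 KO and WT lay in the same range (log2 difference 0.00, SE 0.071, adjusted p = 0.989, 95% interval -0.15 to 0.15). Over all members of the complex that were not called, differences ran between -0.36 for NDUFS6 (adjusted p = 0.0765) and 0.05 for NDUFA3 (adjusted p = 0.671).

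In complex II, succinate dehydrogenase, the catalytic flavoprotein fell and the other 3 subunits were not called. With the length trend removed SDHC was called lower as well (log2 difference -0.11, adjusted p = 0.0442), and SDHB was called lower in KO313 alone (-0.12). This complex also belongs to the citric acid cycle and has no mitochondrially encoded subunit. SDHA, which oxidizes succinate, had 30.5, 33.3, 34.0 and 33.9 RPKM in KO313, 35.6, 31.1, 32.9 and 34.4 RPKM in KO414 and 42.8, 41.6, 43.0 and 40.5 RPKM in WT. The highest p53 KO library was well below the lowest WT library, and the adjusted p was the smallest of any member (log2 difference -0.34, SE 0.044, adjusted p = 8.71e-05). The difference was -0.35 in KO313 and -0.32 in KO414, or 20.9% lower in mean RPKM in p53 KO. SDHA has near-identical pseudogene copies that can share reads with it. SDHAP1 lay between 5.79 and 7.33 RPKM and SDHAP2 between 6.59 and 8.64 RPKM over the 12 libraries, far below SDHA, so SDHA's level is uncertain by the reads that the counting may have moved between them.

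Among the others, SDHB, the iron-sulfur subunit that passes the electrons on, had 71.1, 70.5, 72.7 and 74.3 RPKM in KO313, 87.3, 71.0, 75.7 and 71.7 RPKM in KO414 and 76.8, 77.7, 80.5 and 82.0 RPKM in WT. Here 7 of the 8 p53 KO libraries were below WT and KO414 replicate 1 was above it (log2 difference -0.10, SE 0.054, adjusted p = 0.210). Of the membrane anchors that bind ubiquinone, SDHC had 41.1, 41.6, 44.9 and 44.3 RPKM in KO313, 42.3, 40.3, 44.1 and 41.3 RPKM in KO414 and 47.5, 42.1, 45.5 and 46.4 RPKM in WT (log2 difference -0.09, SE 0.043, adjusted p = 0.129). SDHD, with both motifs in its promoter above, had 56.5, 58.8, 72.7 and 62.8 RPKM in KO313, 65.5, 61.2, 66.5 and 66.1 RPKM in KO414 and 60.7, 59.1, 72.3 and 62.7 RPKM in WT, and its groups overlapped completely (log2 difference 0.00, SE 0.068, adjusted p = 0.990, 95% interval -0.14 to 0.15). The interval of the SDHA difference, -0.43 to -0.24, did not reach those of SDHB (-0.21 to 0.02), SDHC (-0.19 to 0.00) or SDHD, but a difference between subunits was not itself tested.

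Complex III, the cytochrome bc1 complex, had 2 of 9 tested members (22.2%) called lower, where 14.0% of all tested genes were. Neither was a redox subunit, of which only 2 were tested. With the length trend removed 4 (44.4%) were called lower, with UQCR10 and UQCRQ added, beside 18.0% of all tested genes. UQCRB, a small subunit near the ubiquinone site, had 29.0, 29.3, 34.9 and 33.6 RPKM in KO313, 34.7, 29.2, 30.3 and 27.4 RPKM in KO414 and 42.6, 40.9, 43.4 and 46.9 RPKM in WT. Every p53 KO library was well below the lowest WT library, and this was the largest difference of all members (log2 difference -0.48, SE 0.069, adjusted p = 0.000160). In the clones it was -0.45 in KO313 and -0.51 in KO414. UQCRC2, a core subunit facing the matrix, had 74.4, 77.0, 82.98 and 76.6 RPKM in KO313, 75.8, 77.1, 81.9 and 79.3 RPKM in KO414 and 86.0, 84.8, 93.4 and 87.3 RPKM in WT. The difference was small but the groups did not overlap (log2 difference -0.17, SE 0.041, adjusted p = 0.00763).

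The redox subunits of complex III were not called. CYC1, cytochrome c1, had 82.2, 84.5, 101 and 93.9 RPKM in KO313, 96.6, 79.5, 85.0 and 94.1 RPKM in KO414 and 77.7, 85.3, 108 and 78.8 RPKM in WT, with p53 KO and WT means almost equal (log2 difference 0.04, SE 0.089, adjusted p = 0.764). UQCRFS1, the Rieske iron-sulfur protein, averaged 78.1 RPKM in KO313, 80.8 in KO414 and 83.9 in WT (log2 difference -0.08, SE 0.069, adjusted p = 0.445). UQCRH, the hinge protein and the most abundant transcript of the complex, had 242, 248, 278 and 269 RPKM in KO313, 296, 239, 258 and 251 RPKM in KO414 and 267, 262, 291 and 302 RPKM in WT. Its libraries overlapped between the groups (log2 difference -0.11, SE 0.063, adjusted p = 0.214). UQCRHL, a nearly identical copy of UQCRH, was listed at 0.0623 to 0.249 RPKM, and reads may be shared between the copies. UQCRQ, another small subunit, had 71.8, 71.5, 87.1 and 80.6 RPKM in KO313, 93.8, 67.9, 79.4 and 74.7 RPKM in KO414 and 78.0, 87.8, 106 and 85.7 RPKM in WT, again with overlap (log2 difference -0.19, SE 0.092, adjusted p = 0.146).

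Complex IV, cytochrome c oxidase, had 3 of 12 tested members called lower. COX7B, a small transmembrane subunit, had 132, 137, 154 and 139 RPKM in KO313, 154, 128, 139 and 122 RPKM in KO414 and 172, 168, 192 and 199.6 RPKM in WT. No p53 KO library reached the WT range, and the drop was present in both clones (log2 difference -0.41, SE 0.069, adjusted p = 0.000628). COX5B, a zinc-binding subunit on the matrix side, had 106, 77.7, 93.8 and 96.4 RPKM in KO313, 132, 59.7, 73.4 and 74.1 RPKM in KO414 and 127, 113, 115 and 126 RPKM in WT. KO414 replicate 1 was above all WT libraries while the other 3 KO414 libraries were the lowest of all, so the repeats of this clone did not agree (log2 difference -0.47, SE 0.16, adjusted p = 0.0450). The COX5B call was lost in 10 of the 12 fits that left out a library, with adjusted p of up to 0.115, but not without KO414 replicate 1. COX6C, a small transmembrane subunit, had 98.7, 103, 116 and 118 RPKM in KO313, 130.5, 101, 115 and 104 RPKM in KO414 and 119, 126, 129.8 and 135 RPKM in WT. KO414 replicate 1 again lay inside the WT range and the other p53 KO libraries below it (log2 difference -0.21, SE 0.071, adjusted p = 0.0431), and its call was lost in 8 of the 12 such fits, with adjusted p of up to 0.136.

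The remaining ubiquitous subunits of complex IV were not called with the length trend left in. COX7C, the most abundant OXPHOS transcript after ATP5B, had 251, 255, 302 and 278 RPKM in KO313, 322, 259, 277 and 263 RPKM in KO414 and 267, 309, 363 and 329 RPKM in WT (log2 difference -0.20, SE 0.083, adjusted p = 0.0948). COX6A1, the form found outside heart and muscle, had 161, 158, 186 and 176 RPKM in KO313, 212, 141, 163 and 169 RPKM in KO414 and 163, 181, 198 and 187 RPKM in WT (log2 difference -0.10, SE 0.089, adjusted p = 0.429). In both genes the p53 KO libraries overlapped WT. COX4I1 and COX5A, which contact the catalytic core, averaged 96.9 RPKM in KO313, 99.0 in KO414 and 105 in WT, and 93.0 RPKM in KO313, 97.8 in KO414 and 95.7 in WT. NDUFA4, named as a complex I subunit but assigned to complex IV, averaged 54.1 RPKM in KO313, 49.2 in KO414 and 60.0 in WT and was called in KO414 (-0.28, adjusted p = 0.0453) but not in KO313 (-0.14, adjusted p = 0.330) or in both clones together (adjusted p = 0.0819).

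Several complex IV subunits exist as tissue-restricted copies, and these were listed at or near 0 in all groups. COX4I2 (lung), COX6A2 (heart and muscle), COX7B2 (testis) and COX8C (testis) were listed at 0 in all 12 libraries. COX6B2, the testis form, was listed at 0 to 0.103 RPKM and COX7A1, the heart and muscle form, at 0 to 0.177 RPKM. COX7A2L, a COX7A2 relative that takes part in supercomplex assembly, was expressed in all libraries, at 36.8 RPKM in KO313, 38.8 in KO414 and 40.1 in WT, and was not called (log2 difference -0.09, SE 0.061, adjusted p = 0.308).

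In complex V, 3 of 17 tested members were called lower, and all 3 were outside the catalytic F1 head in this fit. Their share of 17.6% was near the 14.0% of all tested genes called lower. With the length trend removed 6 of the 17 (35.3%) were called lower, where 18.0% of all tested genes were. Among the 6 was ATP5C1, the gamma subunit of the F1 central stalk (adjusted p = 0.0226 in limma). ATP5B, the catalytic beta subunit and the most abundant of all members, had 338, 329, 394 and 349 RPKM in KO313, 389, 329, 348 and 346 RPKM in KO414 and 333, 350.0, 419 and 361 RPKM in WT, with clone and WT ranges that overlapped (log2 difference -0.05, SE 0.068, adjusted p = 0.629). ATP5E, the small epsilon subunit of the central stalk, had 184, 190.4, 204 and 204 RPKM in KO313, 232, 178, 196 and 186 RPKM in KO414 and 212, 213, 222 and 238 RPKM in WT. In this gene 7 of 8 p53 KO libraries were below WT, without a call (log2 difference -0.17, SE 0.065, adjusted p = 0.0610). The 5 subunits of the F1 head and central stalk had differences between -0.17 and -0.05. ATP5D, the delta subunit, again varied more between repeats than between groups, with 17.3 to 47.9 RPKM over the 12 libraries and its highest values in replicate 1 of KO414 and of KO313.

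The called members were in the membrane-embedded Fo part and the peripheral stalk that holds it to the head. ATP5J2, the f subunit of Fo, had 151, 182, 199 and 193 RPKM in KO313, 204, 173, 175 and 174 RPKM in KO414 and 216, 227, 238 and 241 RPKM in WT. The groups did not overlap, and KO414 replicate 1 stood above the other 3 libraries of its clone (log2 difference -0.35, SE 0.071, adjusted p = 0.00236). ATP5F1, the b subunit of the peripheral stalk, had 95.1, 98.8, 107 and 102 RPKM in KO313, 108, 101, 105 and 100.1 RPKM in KO414 and 119, 111, 122 and 123 RPKM in WT. All p53 KO libraries were below WT here as well (log2 difference -0.21, SE 0.044, adjusted p = 0.00242). The read-through entry ATP5J2-PTCD1, which joins ATP5J2 to its neighbour and is not a subunit, had 19.3, 22.3, 23.6 and 23.7 RPKM in KO313, 25.2, 21.1, 21.6 and 21.3 RPKM in KO414 and 27.4, 26.3, 26.8 and 28.4 RPKM in WT. It moved with ATP5J2 (log2 difference -0.29, SE 0.061, adjusted p = 0.00317), with which it may share reads. Their 2 calls, both counted among the 18, can therefore not be taken as independent. PTCD1, the other partner, averaged 7.67 RPKM in KO313, 7.95 in KO414 and 7.72 in WT.

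The c subunit, which forms the rotating ring of Fo, is made from 3 genes that encode the same mature protein, and none of them was called. ATP5G1 had 75.1, 85.7, 93.7 and 88.6 RPKM in KO313, 105, 77.3, 87.0 and 88.6 RPKM in KO414 and 84.9, 98.1, 114 and 97.5 RPKM in WT (log2 difference -0.17, SE 0.088, adjusted p = 0.169). ATP5G2 had 69.9, 80.1, 76.5 and 85.4 RPKM in KO313, 90.2, 70.8, 68.5 and 71.9 RPKM in KO414 and 65.8, 92.1, 80.2 and 77.0 RPKM in WT (log2 difference -0.04, SE 0.090, adjusted p = 0.808), and ATP5G3 had 88.4, 89.1, 107 and 95.8 RPKM in KO313, 105, 83.2, 89.1 and 89.8 RPKM in KO414 and 94.4, 99.1, 124 and 103 RPKM in WT (log2 difference -0.17, SE 0.080, adjusted p = 0.138). All 3 were expressed in every library at levels of the same order, with overlapping groups. ATP5L2, a copy of ATP5L, was listed at 0 to 0.0691 RPKM. Of the other ATP5 symbols that are no subunits, ATP5S averaged 2.41 RPKM in KO313, 2.28 in KO414 and 2.63 in WT, and ATP5SL averaged 22.7 RPKM in KO313, 22.1 in KO414 and 21.9 in WT, neither called. ATP5I, the e subunit of Fo, is outside the rule. It had 129, 130.1, 154 and 148 RPKM in KO313, 91.4, 61.8, 70.2 and 68.4 RPKM in KO414 and 139, 174, 177 and 169 RPKM in WT, and was lower in KO414 than in KO313 (log2 difference -0.95, adjusted p = 0.000258), which was true of no member.

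**Figure D3:**
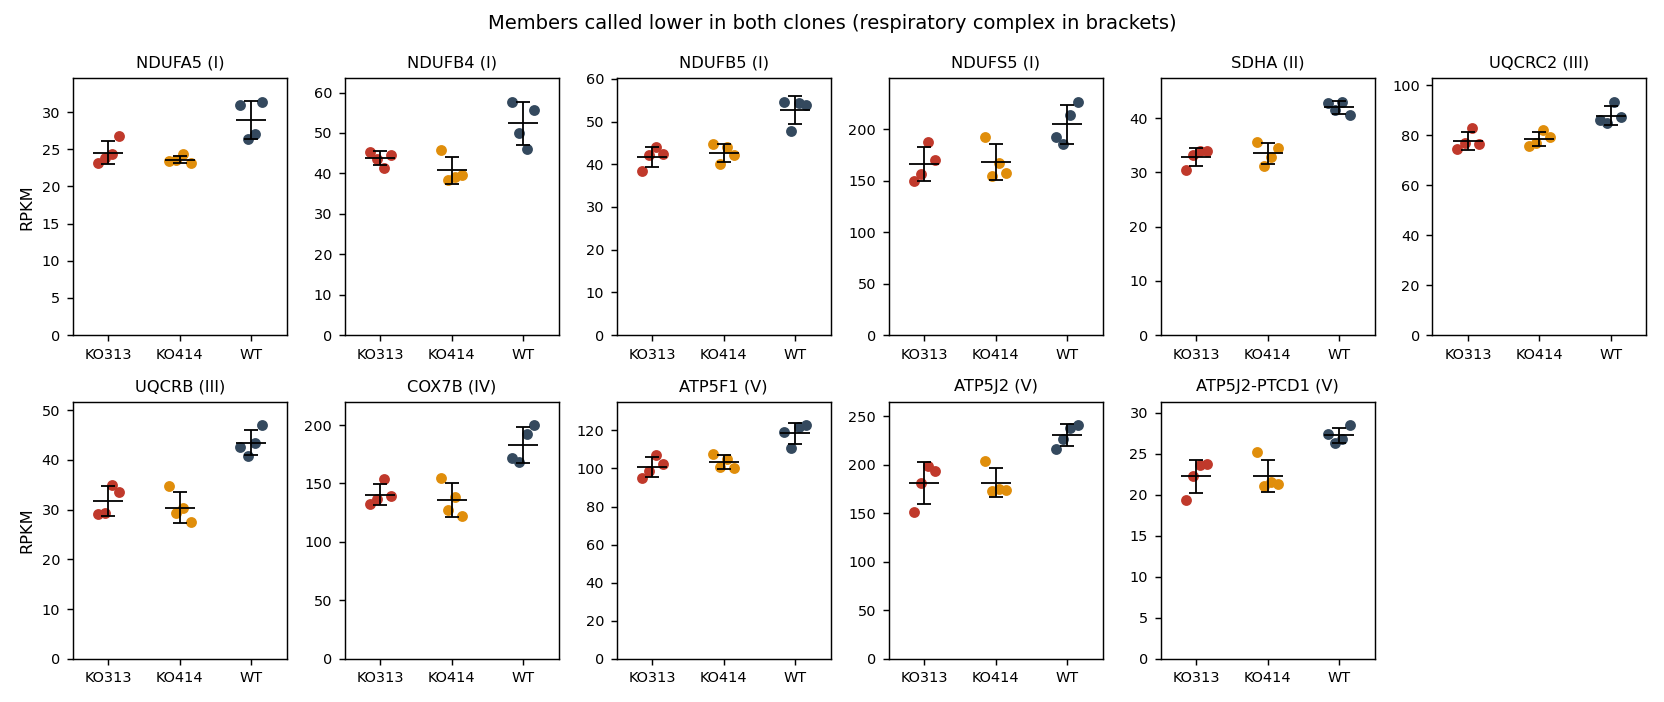
RPKM of the 11 members called lower in both clones is shown by library for KO313, KO414 and WT. Points are libraries, horizontal bars are means and error bars are SD (n = 4), and each vertical axis starts at 0. WT lies highest in every panel, and the p53 KO libraries stay below all WT points in 9 of the panels, the exceptions being NDUFA5 and NDUFS5.

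Between the clones no member passed the test. Of 79 tested members, 0 were called in limma for KO414 against KO313, where 3.36% of all tested genes were. An unadjusted p under 0.05 was reached by 0 members and by 1404 of all 12215 tested genes. The median difference was 0.0026, and the extremes were -0.20 for COX5B and 0.11 for NDUFB10, a membrane-arm subunit of complex I. The 95% intervals of 74 members lay within 0.5 of 0 on the log2 scale, and those of 43 within 0.25. The widest was that of NDUFS7, from -0.84 to 0.53. With 4 libraries a clone, differences between the clones that lie inside these intervals remain possible. Without KO414 replicate 1, COX5B was called lower in KO414 than in KO313.

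The members moved together from library to library, and so did other short transcripts. Gene lengths recovered from the RPKM values had a median of 1632 bases over the tested members and 4404 bases over all tested genes, and 40 of 79 members (50.6%) fell among the 1222 shortest tested genes, of up to 1641 bases. The members' median deviation from each gene's mean over all libraries was highest in WT replicate 3 (0.19) and KO414 replicate 1 (0.18), and lowest in KO414 replicate 2 (-0.18). These 1222 genes deviated by 0.09, 0.16 and -0.12 in these libraries, and cytosolic ribosomal protein genes, a group of short and abundant mRNAs, by 0.26, 0.17 and -0.19. In KO414 replicate 1 the median of the longest tested genes, of at least 9484 bases, deviated by -0.32. The members' differences were also computed after a smooth trend on gene length was removed from each library, an alternative added after the values were seen.

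With the length trend removed, the median difference was closer to 0 and more members passed the test. The median was -0.13 for p53 KO, -0.11 for KO313 and -0.13 for KO414. Members called lower numbered 29 in p53 KO, where 18.0% of all genes were called lower, 19 in KO313 (14.4%) and 22 in KO414 (18.7%), and 0 were higher. All 18 members called without this step were called with it. UQCRB was then -0.50, SDHA -0.36, COX7B -0.32 and NDUFB5 -0.28. Before the trend was removed, 4 of 17 members under 1000 bases were called lower (median -0.20), 7 of 31 members of 1000 to under 2000 bases (-0.16) and 7 of 31 longer members (-0.12). After it was removed the counts were 5 of 17 (-0.11), 12 of 31 (-0.12) and 12 of 31 (-0.13). The step takes out dependence on length, so the loss of the order by length is no separate result. It would also take out a difference between groups that went with length.

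**Figure D4:**
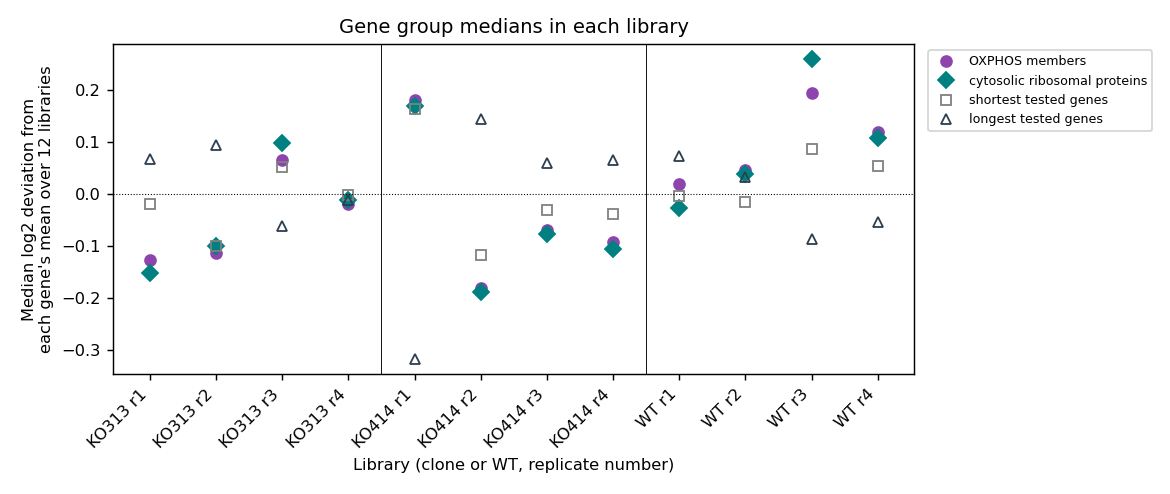
For each library, the median log2 deviation from each gene's mean over the 12 libraries is shown for the OXPHOS members, cytosolic ribosomal proteins and the shortest (up to 1641 bases) and longest (at least 9484 bases) tested genes. Members and ribosomal proteins lie close together in most libraries, at 0.18 and 0.17 in KO414 replicate 1, where the longest genes lie at -0.32.

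**Figure D5:**
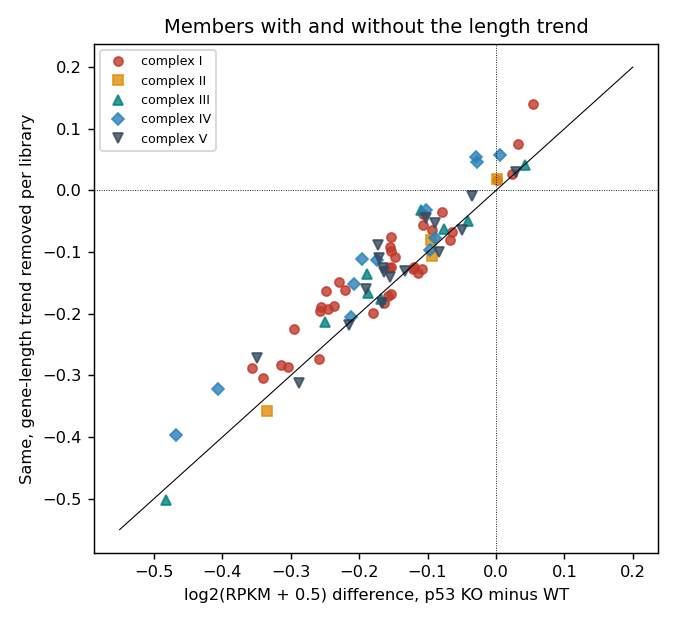
The log2(RPKM + 0.5) difference of p53 KO minus WT for each tested member is plotted before (horizontal axis) and after (vertical axis) removal of the gene-length trend, with the line of equal values drawn. The points stay near the line, and the median over members is -0.15 before and -0.13 after.

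KO414 replicate 1 changed how many members were called. Without it 32 members were called lower in p53 KO, 23 in KO313 and 42 in KO414, the last with a median of -0.22. The share of all tested genes called can shift between fits as well. It is not set beside the counts in this paragraph, so they are not a result about the members alone. In the other direction, leaving out WT replicate 4 gave 11 in p53 KO, leaving out KO313 replicate 2 gave 7 in KO313, and leaving out KO414 replicate 2 or 4 or WT replicate 4 gave 9 in KO414. Leaving out KO414 replicate 3 or WT replicate 3 gave 10 in KO414. The 11 members called in both clones kept their call in p53 KO under every setting tried. The other 7 (COX5B, COX6C, NDUFA10, NDUFB3, NDUFB6, NDUFC1 and NDUFS4) lost it under at least 1 setting.

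Factors that assemble the complexes were called in a minority of cases. Of 13 complex I assembly factors, 4 were called lower and 0 higher in p53 KO (median -0.06), and all counts of the related lists are to be read beside the 14.0% of all tested genes called lower and 15.6% called higher. NDUFAF2 had 36.1 RPKM in KO313, 33.4 in KO414 and 42.0 in WT (log2 difference -0.27, SE 0.075, adjusted p = 0.0154), and NUBPL, which delivers iron-sulfur clusters to complex I, had 5.21 RPKM in KO313, 4.90 in KO414 and 5.94 in WT (log2 difference -0.21, SE 0.059, adjusted p = 0.0158). NDUFAF1 was lower as well (-0.19). For complexes II and III, 1 of 5 factors was higher and 1 lower. BCS1L, which inserts the Rieske protein into complex III, rose to 17.1 RPKM in KO313 and 18.0 in KO414, against 14.4 in WT (log2 difference 0.28, SE 0.071, adjusted p = 0.00914), whereas TTC19 was lower (-0.16). Of 22 complex IV factors 5 were lower and 0 higher (median -0.09), among them COA5 (-0.45), PET117 (-0.26) and COX11 (-0.15), which brings copper to the enzyme. Of 4 genes for the assembly and inhibition of ATP synthase 2 were lower, the inhibitor ATPIF1 (log2 difference -0.29, SE 0.078, adjusted p = 0.0134) and ATPAF1 (-0.13).

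Of 13 tested regulators of mitochondrial biogenesis, 3 were called higher and 0 lower in p53 KO (median 0.05), where 15.6% of all tested genes were called higher. With the length trend removed 2 were higher and 1 lower, since POLG lost its call (adjusted p = 0.111) and TFAM was called lower (-0.11, adjusted p = 0.0443). PPRC1, a coactivator of the PGC-1 family, had 12.9, 13.3, 11.4 and 11.96 RPKM in KO313, 11.5, 14.6, 12.9 and 14.6 RPKM in KO414 and 8.97, 10.4, 9.52 and 8.40 RPKM in WT, with all 8 p53 KO libraries above WT (log2 difference 0.45, SE 0.076, adjusted p = 0.000632). MYC averaged 75.5 RPKM in KO313, 77.5 in KO414 and 63.8 in WT (log2 difference 0.26, SE 0.064, adjusted p = 0.00800) and POLG, the mitochondrial DNA polymerase, 17.0 RPKM in KO313, 17.7 in KO414 and 15.2 in WT (log2 difference 0.18, SE 0.055, adjusted p = 0.0229). The factors whose motifs were searched in the promoters were not called. Their differences were 0.01 for NRF1, 0.05 for GABPA and 0.05 for YY1, and that of TFAM, which packages and transcribes mitochondrial DNA, was -0.09. TFB1M, which methylates mitochondrial ribosomal RNA, was called lower in KO414 alone (-0.18, adjusted p = 0.0338).

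Of 4 tested genes that link p53 to mitochondria 3 were called lower in p53 KO, GLS2 and FDXR by far more than any subunit. GLS2, a mitochondrial glutaminase, had 1.81, 2.00, 2.21 and 2.54 RPKM in KO313, 2.74, 2.33, 2.78 and 2.36 RPKM in KO414 and 9.44, 9.28, 10.9 and 9.85 RPKM in WT (log2 difference -1.87, SE 0.091, adjusted p = 3.61e-09). FDXR, which passes electrons to mitochondrial cytochromes P450, had 5.04, 3.46, 4.13 and 4.11 RPKM in KO313, 5.96, 3.21, 3.96 and 4.08 RPKM in KO414 and 16.3, 13.1, 13.3 and 14.4 RPKM in WT (log2 difference -1.65, SE 0.12, adjusted p = 3.37e-07). For both, all libraries of both clones were far below WT. SCO2, a copper chaperone of complex IV known as a p53 target, had 15.6, 11.1, 14.0 and 14.4 RPKM in KO313, 19.3, 9.96, 12.3 and 12.5 RPKM in KO414 and 12.1, 13.3, 13.8 and 13.2 RPKM in WT and overlapped WT (log2 difference 0.03, SE 0.13, adjusted p = 0.890). AIFM1, needed for import of respiratory subunits, was lower by a small step (log2 difference -0.16, SE 0.044, adjusted p = 0.0172). Of 13 citric acid cycle enzymes 4 were lower and 1 higher (median -0.04), that is 30.8% lower where 14.0% of all tested genes were. SUCLG2, a subunit of succinyl-CoA synthetase, fell (log2 difference -0.36, SE 0.043, adjusted p = 3.51e-05) and CS, citrate synthase, rose (log2 difference 0.17, SE 0.053, adjusted p = 0.0235).

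The proteins of the cytosolic and of the mitochondrial ribosome made up the last 2 lists. Of 78 tested cytosolic ribosomal protein genes, 20 were called lower and 0 higher in p53 KO (median -0.13), close to the members' 18 of 79 and -0.15. With the length trend removed 28 of the 78 (35.9%) were lower and 1 higher (median -0.08). In that fit 36.7% of the members and 18.0% of all tested genes were lower. RPS27L, a ribosomal protein paralog and known p53 target in the cytosolic list, had 16.8 RPKM in KO313, 17.6 in KO414 and 48.5 in WT (log2 difference -1.46, SE 0.068, adjusted p = 2.26e-09). Of 73 mitochondrial ribosomal protein genes, which serve to translate the mitochondrially encoded subunits, 11 were lower (15.1%, near the 14.0% of all tested genes) and 0 higher (median -0.03), led by MRPS21 (-0.62), MRPL39 (-0.47) and MRPL33 (-0.40). With the length trend removed 12 of the 73 were lower and 5 higher. Whether any of these lists differs from the members was not tested. The mitochondrially encoded subunits were not analysed here.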

How the data were processed

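The authors deposited 1 RPKM table of 22328 gene symbols, in which each of 12 columns matched 1 labelled library by name, and its values were used with no further scaling between libraries. Trimmomatic and the build hg19 are named in the submitters' processing notes. Not given in the sources used here were the aligner, read counter, annotation and strand setting, and poly(A) selection is unclear, since the labels name an mRNA kit and the methods of the study ribosomal RNA removal. Of the symbols 26 were dates, and 4 repeats among them were left out.

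Members and the related gene lists were chosen with earlier results of these data known. Values were tested as log2(RPKM + 0.5), a scale on which folds of low genes are understated, for the 12215 genes that reached 0.5 RPKM in 4 or more libraries. Tests were two-sided and used limma (version 3.58.1, R 4.3.3) with its intensity trend, called at a Benjamini-Hochberg adjusted p under 0.05 and separately with a fold change of at least 2. The 8 p53 KO libraries were set against 4 WT libraries in a model of 2 groups, as in the study's own comparison, and clones were tested in a model of 3 groups that shares the spread. The model of 2 groups was tested on simulated data, in which noise was independent between libraries and no length trend or clone effect was added. No read counts were used, so precision is given by the spread between libraries. Gene lengths came from the whole-number steps of the RPKM values, recovered for 99.99% of genes above 0, and a loess trend of span 0.3 on length was removed per library as an added alternative. Alternatives were other pseudocounts, no filter, median centring, quantile normalization, no intensity trend, a replicate block and leaving out each library.

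Named members were the 3 with the highest mean RPKM per complex, up to 3 called members per complex with the largest difference, and duplicated or tissue-restricted copies. From each related list up to 3 called genes with the smallest p were named. Genes named beyond this rule (such as NDUFV1, NDUFS7, NDUFA5, NDUFS4, NDUFA4, ATP5D, SCO2 and the factors of the motif search) were chosen after their values were seen. Tables and plots were made in Python 3.11.15 with matplotlib 3.10.9, pandas 2.3.3 and numpy 2.4.6. The level of the edited gene is not reported here.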

Additional observations from a re-analysis of the deposited data

Results flagged for a closer look

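In groups of 4 libraries, the highest or lowest value was compared with the rest by Dixon's criterion for 102 groups of named members and sums by complex, and 4 stood apart, where chance alone would give about 1 in 20 groups. NDUFB5 in WT replicate 2 was 47.8 RPKM, against 53.9 to 54.6 RPKM in the other WT libraries. KO414 replicate 1 accounted for the other 3. In that library ATP5J2 was 204 RPKM (172.6 to 175.0 in the other KO414 libraries), the read-through entry ATP5J2-PTCD1 25.2 RPKM (21.1 to 21.6) and ATP5G2 90.2 RPKM (68.5 to 71.9). ATP5J2 and ATP5J2-PTCD1 share reads. All 3 values lay on the side of the WT libraries, and the calls of ATP5J2 and ATP5J2-PTCD1 were kept without that library. The cause was not tested.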

How the results depend on the processing

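Called members numbered 18 in p53 KO, 11 in KO313 and 16 in KO414 against WT, and 0 between the clones. Leaving out 1 library in turn gave 11 to 32 in p53 KO, 7 to 23 in KO313, 9 to 42 in KO414 and 0 to 1 between the clones, and the highest count came each time without KO414 replicate 1. Shares of all tested genes called in these and the following fits are not set beside the counts. A shift in a count need therefore not be particular to the members. The count fell by more than 1.5 times in p53 KO without WT replicate 4 (11), in KO313 without KO313 replicate 2 (7), and in KO414 without KO414 replicates 2, 3 and 4 (9, 10 and 9) or WT replicates 3 and 4 (10 and 9). Quantile normalization gave 19 in KO313. Removal of the gene-length trend, chosen after the data were seen, gave 29 in p53 KO and 19 in KO313, and with KO414 replicate 1 omitted as well it gave 31 in p53 KO, 25 in KO313 and 30 in KO414. The replicate numbers were not taken to pair the libraries in the main fits. Of 12 same-number pairs, 6 had correlations of deviations over 0.1 (range -0.193 to 0.514). In 11 of 24 comparisons, each among 4 candidates, a library correlated best with its own number. These values do not settle whether the numbers pair the libraries. The replicate block gave 21 in p53 KO, 12 in KO313, 18 in KO414 and 0 between the clones, and the replicate block with the length trend removed gave 34 in p53 KO, 21 in KO313 and 29 in KO414, of which 1 was higher (NDUFB10). The cause of these shifts was not tested. No named member changed sign where it was called in either fit. Each median over the members moved by less than 0.113, the spread of library medians. Other pseudocounts, no filter, median centring and no intensity trend kept all counts within 1.5 times. Summed RPKM was lower in p53 KO by 7.19% to 11.1% by complex, and means of log2 values moved these by less than the WT spread. Read depth was not known from counts, and 2 clones set against 1 parental line cannot separate loss of p53 from differences between clones and parent.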
